A study of Mus musculus with 6 samples.

Results

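Long non-coding RNAs (lncRNAs) that were higher after GDNF withdrawal than in normal culture and than after GDNF refreshment were collected from cultured mouse spermatogonial stem cells (SSCs). A transcript was taken when the lower of its 2 withdrawal libraries was at least 1.5 times the highest of the other 4 libraries, in reads per 1000000 counted on lncRNAs (CPM). It also had to be shorter than 10000 bp and to have 50 or more counts in 2 or more of the 6 libraries. The 30 transcripts with the most reads, and 23 transcripts given by identifier, were left out. This left 98 lncRNAs, which were 0.766% of the 12797 transcripts that passed the limits on length and counts and 0.133% of the 73710 transcripts listed in any library. The opposite pattern, with all 4 other libraries at least 1.5 times both withdrawal libraries, was met by 213 transcripts. Since the set was defined by its levels in withdrawal against normal culture and against refreshment, those differences are a description, and where edgeR values are given for them below they lend the pattern no support.

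The cultures were C57BL/6 germ cells, enriched for the surface protein Thy1 from 5 mice aged 6 to 8 days and grown on mitotically inactivated STO feeder cells for 10 to 20 passages. Their serum-free medium held GDNF at 20 ng/ml, its co-receptor GFRA1 at 150 ng/ml and FGF2 at 1 ng/ml. Normal culture (N), cultures deprived of GDNF for 18 h (0h) and such cultures 8 h after GDNF was added back (8h) gave 2 libraries each, replicates 1 and 2. The question was which RNAs responded to the loss and the return of GDNF. Germ cell clumps were detached by pipetting before RNA isolation, and such cultures hold stem cells among other progenitor spermatogonia. The tables name lncRNAs by number alone, so the labelled cell type could not be checked by marker genes, and feeder cell RNA was not tested. In bulk RNA, a smaller number of cells of one type and less RNA per cell cannot be told apart.

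GDNF is secreted by Sertoli cells of the testis and binds GFRA1, which signals through the receptor tyrosine kinase RET. In spermatogonia this pathway sustains self-renewal, and cultured SSCs depend on it. lncRNAs are transcripts without a protein product that can act on chromatin, on neighbouring genes or on other RNAs, and the function of most is not known. No function is given here for any of the 98, since their numbers carry none.

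Of the 98 lncRNAs, 53 were known, with NONCODE numbers beginning with n, and 45 were predicted, with transcript numbers beginning with TCONS from the authors' assembly. Known transcripts were 54.1% of the set, 59.9% of all that passed the limits and 46.9% of the set with the opposite pattern. The 98 were between 349 and 8942 bp long, with a median of 2268.5 bp, against 2114 bp for all that passed the limits and 2367 bp for the opposite set. Length and class thus lay between those of the other 2 sets.

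The libraries held between 7685843 and 8497549 reads counted on lncRNAs, and 3 counts were 0.353 to 0.39 CPM, the limit that a count of 0 allows. Intervals and limits of this kind cover counting error only. Together the 98 took 1570 CPM in each N library, 3860 and 4250 CPM in the 0h libraries, and 1760 and 1720 CPM in the 8h libraries. Most were of low abundance, with a median over the 98 of 47.5 mean counts in N, which was 152 in 0h and 53.5 in 8h. In N 53 of them, and in 8h 47, had a mean under 50 counts, whereas 9 reached 1000 or more in 0h. The limit of 50 counts was met by 37 lncRNAs through both 0h libraries alone, so these could pass only by being high in 0h. Another 40 had at least 50 counts in all 6 libraries.

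**Figure D1:**
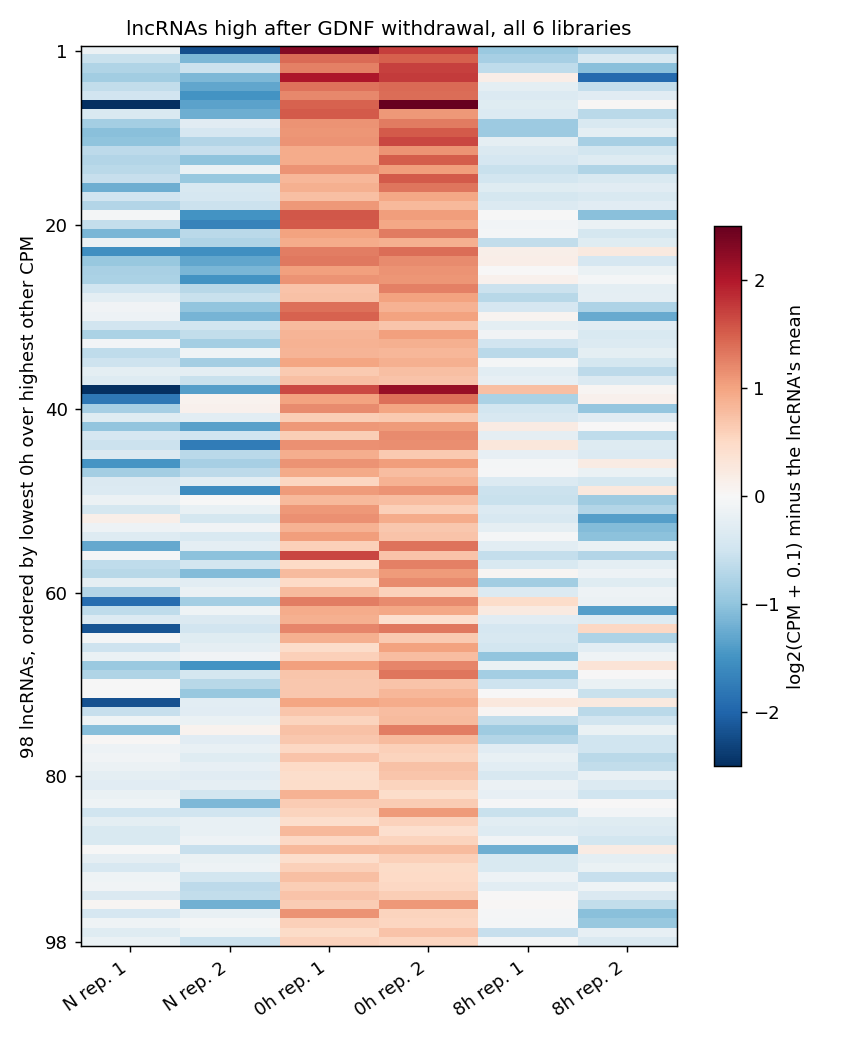
Each line is 1 of the 98 lncRNAs, ordered from the largest to the smallest ratio of the lowest 0h to the highest N or 8h CPM, and each column is 1 library. Colour gives log2(CPM + 0.1) minus the mean of that lncRNA over the 6 libraries. The red 0h columns follow from how the set was chosen, whereas the N and 8h columns are blue or pale with no fixed order between them.

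On average over the replicates, the 98 lncRNAs stood 1.58 to 19.0 times higher in 0h than in N, with a median of 2.55, and 75 were at least 2-fold higher. Against 8h the range was 1.57 to 7.76 with a median of 2.31, and 77 were at least 2-fold higher. The ratio used to choose them, of the lowest 0h to the highest other CPM, had a median of 1.74 and reached 2 in 25 lncRNAs. Known and predicted lncRNAs had like medians for this ratio, 1.74 and 1.75.

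The largest ratio, 3.79, belonged to n294514, a known lncRNA of 1729 bp. Its level was 2.30 and 0.486 CPM in N, 13.0 and 8.71 CPM in 0h, and 1.30 and 1.50 CPM in 8h. Those few reads were 22 in both N libraries together and 22 in both 8h libraries, against 180 in 0h. The low groups lay side by side, and the ratio of 8h to N counts, 1.02, had an exact 95% interval of 0.54 to 1.94.

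A similar separation was seen at a higher level for n285326, a known lncRNA of 4475 bp. It stood at 15.8 and 10.7 CPM in the N libraries, 62.8 and 65.9 in the 0h libraries, and 13.1 and 17.9 in the 8h libraries. The edgeR log2 fold change was 2.29 ± 0.26 (SE) for 0h against N and -2.14 ± 0.26 for 8h against 0h, and N and 8h overlapped.

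The longest lncRNA of the set, the predicted TCONS_00069400 of 8942 bp, combined a large ratio, 3.45, with many reads. Its CPM was 37.0 and 42.8 in normal culture, 148 and 204 after withdrawal and 39.8 and 30.2 after refreshment. Reads covered 97.39% and 98.66% of its length in 0h, against 65.84% and 73.46% in N and 69.09% and 60.85% in 8h. Both its level and the stretch covered were thus higher in 0h, with log2 fold changes of 2.15 ± 0.21 against N and -2.42 ± 0.22 from 0h to 8h.

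TCONS_00011710, predicted and 4330 bp long, was the other lncRNA among both the 10 largest ratios and the 10 with most reads. It had 39.7 and 24.8 CPM in N, against 156 and 164 in 0h and 51.4 and 40.3 in 8h. In CPM both 8h libraries lay just above both N libraries, and with TMM sizes they overlapped. The TMM-scaled log2 difference between 8h and N of 0.43 ± 0.23 had an FDR of 0.479.

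The remaining 6 of the 10 largest ratios were lncRNAs of few reads. The known n291632 had 0.894 and 0.730 CPM in the N libraries, 7.25 and 6.00 in the 0h libraries, and 1.95 and 0.375 in the 8h libraries, so that its 2 refreshed libraries differed more from each other than from N. TCONS_00103108 was predicted and had 5.49 and 2.68 CPM in normal culture, 17.8 and 20.5 after withdrawal and 6.12 and 6.37 after refreshment. The known n269027 had 2.94 and 1.58 CPM in N, against 11.3 and 8.24 in 0h and 2.99 and 2.37 in 8h. In these 3 the choice set both 0h libraries apart. Both 8h libraries of TCONS_00103108 lay above both N libraries, in CPM and with TMM sizes. Its log2 difference between 8h and N was 0.54 ± 0.37 with an FDR of 0.595. For n291632 and n269027 8h and N overlapped.
For n296755, known and only 609 bp long, N was at 2.04 and 3.04 CPM, 0h at 8.23 and 9.41, and 8h at 1.95 and 2.87. TCONS_00164191 was at 1.53 and 2.43 CPM in the N libraries, 7.13 and 9.65 in the 0h libraries, and 1.69 and 2.75 in the 8h libraries. In both of these the 8h libraries fell within or next to the N range. The last of the 6, n201097, is described with the lncRNAs that differed between 8h and N.

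Among the lncRNAs with most reads, the known n267414 of 2711 bp led with 153 and 187 CPM in normal culture, 302 and 442 after withdrawal and 160 and 184 after refreshment. The 8h values fell inside the N range, with a log2 difference of -0.06 ± 0.20 between them. Reads covered at least 98.89% of n267414 in every library.

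The known n286201, of 1736 bp, had 147 and 142 CPM in N, against 233 and 276 in 0h and 104 and 114 in 8h. Both 8h libraries lay below both N libraries. The log2 difference between 8h and N was -0.49 ± 0.17 with an FDR of 0.261, and 0.0365 when the replicate number entered as a block.

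The predicted TCONS_00100843 of 2390 bp had 58.2 and 46.2 CPM in the N libraries, 208 and 224 in the 0h libraries, and 103 and 91.1 in the 8h libraries. TCONS_00082066, also predicted and 5217 bp long, had 59.5 and 68.0 CPM in normal culture, 208 and 185 after withdrawal and 105 and 95.4 after refreshment. In both, the level after GDNF refreshment lay above that of N, and the choice kept it below 0h. The log2 difference between 8h and N was 0.81 ± 0.18 for TCONS_00100843, with an FDR of 0.0862 and of 0.00237 with the replicate block. For TCONS_00082066 it was 0.58 ± 0.18, with an FDR of 0.203 and of 0.0254 with the block.

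Among the other known lncRNAs with most reads, n295206, n204148 and n279966 had over 100 CPM in both 0h libraries. For n295206, of 601 bp, the values were 42.5 and 48.6 CPM in N, against 149 and 124 in 0h and 56.1 and 58.2 in 8h. For n204148 they were 66.3 and 64.7, then 155 and 112, then 68.4 and 67.3, and for n279966 75.6 and 73.3, then 118 and 125, then 67.9 and 58.7. In CPM both 8h libraries of n295206 and n204148 lay above N, and both of n279966 below it, while with TMM sizes 8h and N overlapped for n204148. After TMM scaling the log2 differences between 8h and N were 0.25 ± 0.19, -0.03 ± 0.20 and -0.31 ± 0.18, in that order, and none passed an FDR of 0.05.

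Per length, as RPKM (CPM per kilobase of transcript), the order was different. The highest mean RPKM in 0h, 227, was shared by n295206 and by TCONS_00107422, the shortest of the set at 349 bp, which is named here after its values were seen. The mean RPKM of n295206 was 75.9 in N and 95.1 in 8h, and that of TCONS_00107422 was 138 in N and 131 in 8h. Next came n286201, with a mean RPKM of 146 in 0h against 83.5 in N and 62.8 in 8h, and n267414, with 137 against 62.7 and 63.4. At the other end n291632 had a mean RPKM of 1.61 in 0h, against 0.198 in N and 0.283 in 8h.

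**Figure D2:**
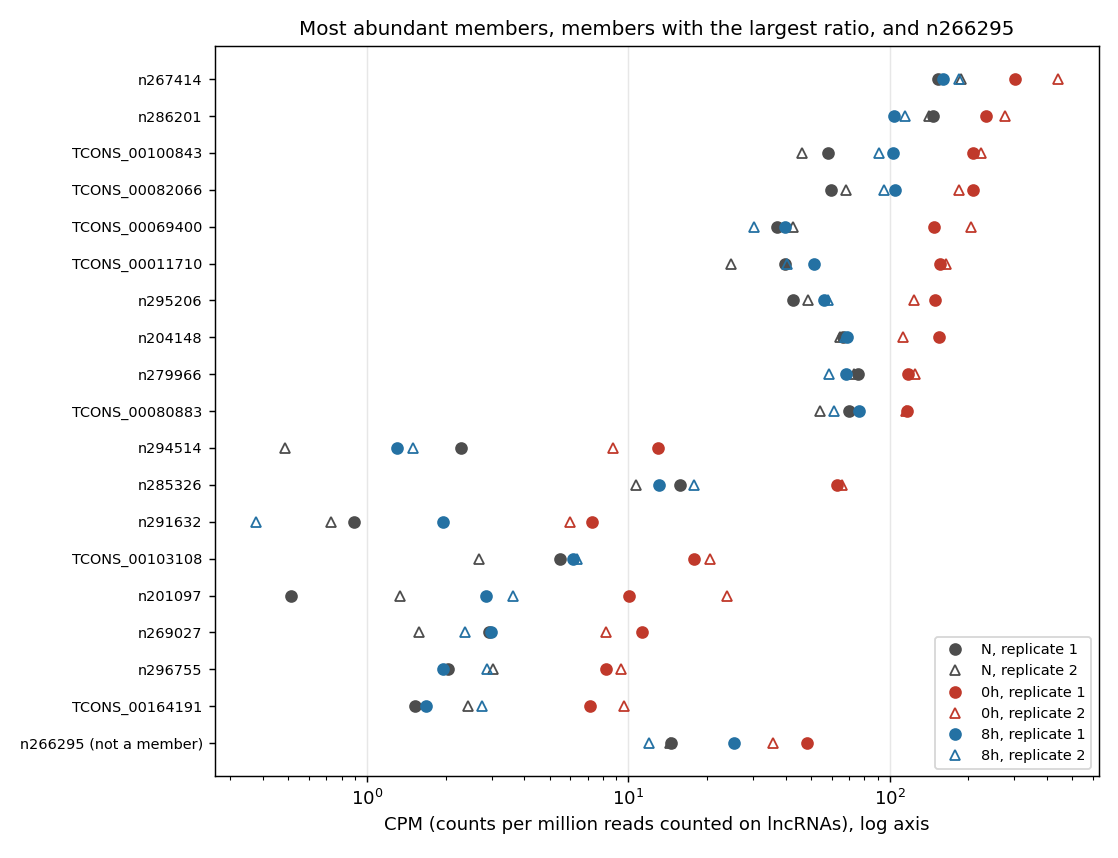
CPM on a log axis in each of the 6 libraries for the 10 lncRNAs with most reads in 0h and the 10 with the largest ratio of lowest 0h to highest other CPM, 2 of which belong to both, and for n266295. Colours give the condition, and filled circles and open triangles give replicates 1 and 2. In every line the red 0h symbols lie to the right of the others, which the choice set for all but n266295. For TCONS_00100843 and TCONS_00082066 the blue 8h symbols lie to the right of grey N.

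Counted by edgeR's quasi-likelihood test, with an FDR under 0.05 over all 39310 lncRNAs tested and at least a 2-fold change, 41 of the 98 were called higher in 0h than in N. Over all tested the same call was made for 0.221%. For 8h lower than 0h, 39 of the 98 were called, and over all tested 0.392%. Both calls were made for 30 lncRNAs, of which 16 were known and 14 predicted, the first alone for 11, the second alone for 9 and neither for 48. By an unadjusted P under 0.05 with a 2-fold change, which is the wider criterion of the study, 75 and 87 were called, against 3.08% and 4.1% of all tested, and 72 by both. The set was chosen on these contrasts, so nothing is read from these counts. With the replicate number as a block the second count was 75 instead of 39, and 1.47% over all tested. Over all tested lncRNAs 154 were lower and 196 higher in 8h than in 0h with TMM scaling, and 107 and 248 with total counts, which called 23 of the 98 lower (0.272% of all tested).

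At the threshold ratio of 1.5, the 3 lncRNAs nearest inside were n278119 with 1.508, TCONS_00018652 with 1.506 and TCONS_00080883 with 1.5. The last had 70.1 and 54.0 CPM in the N libraries, 117 and 115 in the 0h libraries, and 76.6 and 61.1 in the 8h libraries. Nearest outside were n289039 with 1.499, n293689 with 1.498 and n269081 with 1.495. The known n293689 stood at 418 and 511 CPM in normal culture, 766 and 789 after withdrawal and 510 and 494 after refreshment, more than any of the 98. On both sides of the limit the levels had the same shape, and the limit marks no gap.

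The known lncRNA n266295, of 2106 bp, which the study named among its GDNF-responsive lncRNAs, fell just short of the ratio. Its CPM was 14.6 and 14.5 in N, against 48.3 and 35.9 in 0h and 25.4 and 12.0 in 8h. Replicate 1 of 8h was thus more than 2-fold above replicate 2, and it set the ratio of 1.415, the rank 150 of all that passed the limits. The log2 fold change was 1.55 ± 0.31 for 0h against N with an FDR of 0.0451, -1.28 ± 0.30 for 8h against 0h with 0.0695, and 0.27 ± 0.31 for 8h against N with 0.779. The second was called with the replicate block (FDR 0.000889), by DESeq2 (0.0149), without a filter (0.00209) and without 8h replicate 1 (0.028). The first was not called with total counts (0.0547), with at least 50 counts in 2 libraries (0.0576), or without N replicate 1 (0.314), N replicate 2 (0.32), 0h replicate 1 (0.271) or 0h replicate 2 (0.132). When library sizes were scaled by TMM or by DESeq2 size factors in place of the plain totals, all 98 stayed in the set and 36 (TMM) or 35 (DESeq2) lncRNAs joined it, n266295 among them.

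**Figure D3:**
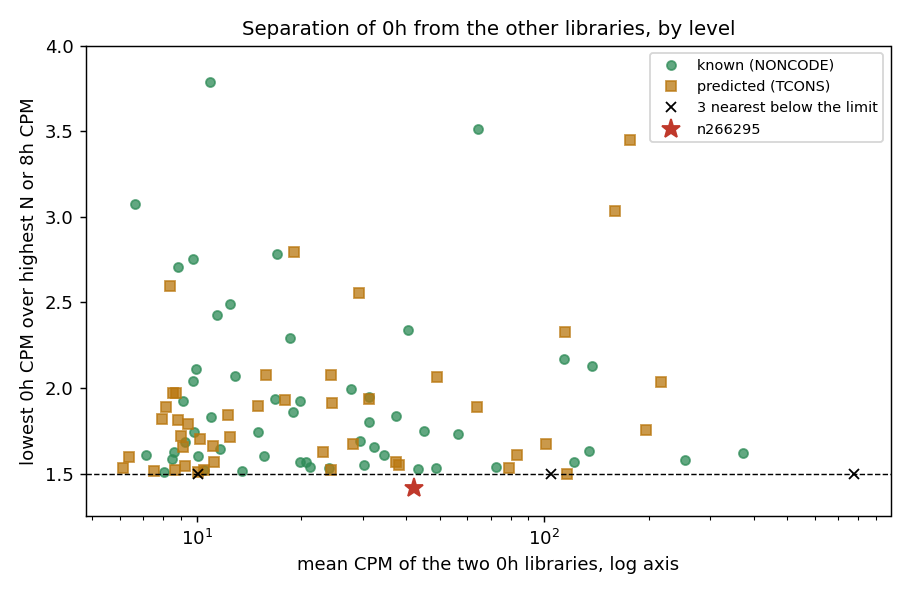
The ratio of the lowest 0h CPM to the highest N or 8h CPM against the mean CPM of the 2 0h libraries on a log axis, for 53 known (circles) and 45 predicted (squares) lncRNAs. Crosses are the 3 transcripts nearest below the limit of 1.5 (dashed line), and the star is n266295 at 1.415. Ratios above 3 occur both near 10 CPM, as for n294514, and above 100 CPM, as for TCONS_00069400.

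The choice bounded N and 8h alike below 0h, so lncRNAs that stayed high after GDNF refreshment were not taken. A fall from 0h towards N was thus built in, which also limits how far 8h can lie above N. Only the order of N and 8h was not set by the choice. Whether lncRNAs raised in 0h return to N in general was not tested. The median log2 fold change of 8h against N over the 98 was 0.07, with 51 above 0 and 47 below. It was 0.01 over all tested and -0.05 over all that passed the limits on length and counts. Within replicate 1 the median of the 98 was -0.01 and within replicate 2 it was 0.13. Single values ran from -0.80 to 2.57, and on mean CPM 12 of the 98 were at least 2-fold above N and none was 2-fold below.

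One of the 98, the predicted TCONS_00154177 of 5587 bp, was called higher in 8h than in N, a call made for 0.0611% of all tested. It had 6.64 and 6.57 CPM in the N libraries, 47.2 and 50.7 in the 0h libraries, and 21.5 and 22.9 in the 8h libraries. Both 8h libraries lay above both N libraries, the choice kept them below 0h, and replicates were close in each condition. The log2 fold change of 8h against N was 1.67 ± 0.24 with an FDR of 0.0142, and of 0.000137 with the replicate block. It was 2.90 ± 0.24 for 0h against N and -1.23 ± 0.22 for 8h against 0h. Reads covered 51.92% and 41.15% of TCONS_00154177 in N, against 89.87% and 99.55% in 0h and 81.24% and 82.76% in 8h. With 1 of the N libraries left out the FDR was 0.135 or 0.229, without replicate 2 of 8h 0.095 and in a fit of N and 8h alone 0.0703, while the fold change stayed between 1.60 and 1.76.

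The other 2 lncRNAs with the largest values of 8h against N had few reads in N. They were not called in the main fit and were called with the replicate block. The predicted TCONS_00070059, 689 bp long, had 1 and 6 counts in normal culture, 54 and 82 after withdrawal and 27 and 17 after refreshment. Per counted read, its summed counts were 18.7 times those of N in 0h and 6.43 times in 8h (exact 95% interval 2.87 to 16.9). The log2 fold change of 8h against N was 2.57 ± 0.66 with an FDR of 0.13, and of 0.0268 with the block.
The known n201097, of 1997 bp, had 4 and 11 counts in N, against 82 and 203 in 0h and 22 and 29 in 8h. In 0h it was 18.3 times its N level and in 8h 3.48 times (1.93 to 6.66). Its 0h replicates differed 2.37-fold, the widest gap of the 98. Its log2 fold change of 8h against N was 1.71 ± 0.58 with an FDR of 0.251, and of 0.0377 with the block. For both, all 8h libraries were above all N libraries and below all 0h libraries.

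With the replicate number as a block, 5 lncRNAs were called at least 2-fold higher in 8h than in N, against 0.895% of all tested, and none lower, against 1.21%. At an FDR under 0.05 with any fold change they were 9, against 3.44% of all tested. Beside TCONS_00154177, TCONS_00070059, n201097, TCONS_00100843 and TCONS_00082066, the higher ones were n275844, n277028 and TCONS_00144923, and n286201 was lower. The last 3 higher ones were named after their values were seen. The known n277028 had 3.58 and 7.54 CPM in the N libraries, 33.7 and 31.2 in the 0h libraries, and 18.9 and 12.4 in the 8h libraries, a log2 fold change of 1.40 between 8h and N with an FDR of 0.0121 in this fit. For n275844 the values were 7.41 and 4.50 CPM in normal culture, 28.0 and 27.5 after withdrawal and 13.8 and 12.4 after refreshment, and for TCONS_00144923 32.9 and 25.1, then 91.7 and 111, then 54.9 and 48.7. In these 3 the level after 8 h of GDNF also lay above N, and the choice kept it below 0h.

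Below N, no lncRNA of the set was called at least 2-fold lower by edgeR or by DESeq2, and over all tested the shares were 0.153% and 0.486%. DESeq2 called 2 of the 98 higher, TCONS_00154177 and n277028, against 0.237% of all tested. At an unadjusted P under 0.05 with a 2-fold change the counts were 9 higher and 0 lower by either tool. Over all tested these shares were 4.05% and 4.17% by edgeR and 3.02% and 3.07% by DESeq2. The lowest value was that of TCONS_00118496, at -0.80 ± 0.45 with an FDR of 0.5, with 4.85 and 3.16 CPM in N, against 9.71 and 8.36 in 0h and 3.25 and 1.62 in 8h. For n271153 it was -0.72 ± 0.31 with an FDR of 0.37, and N stood at 7.79 and 8.51 CPM, 0h at 15.2 and 14.8, and 8h at 5.85 and 4.62. TCONS_00074768 followed at -0.57 ± 0.36 with an FDR of 0.557, level at these digits with TCONS_00124552, named after its values were seen, at -0.57 ± 0.34 with an FDR of 0.541. In n271153 both 8h libraries were below both N libraries, in CPM and with TMM sizes. In TCONS_00118496 they overlapped in CPM and were below N with TMM sizes.

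In CPM, both 8h libraries lay above both N libraries for 31 of the 98, or 31.6%, and below for 11, or 11.2%. Over all tested these shares were 25.4% and 18.6%, and over all that passed the limits on length and counts 25.4% and 22.0%. With TMM library sizes the counts were 23 above and 19 below, against 21.6% and 22.5% of all tested and 20.5% and 27.5% of all that passed the limits. How many lay above N and how many below thus depended on the scaling, since the TMM factors of the 8h libraries, 1.0688 and 1.0123, were above those of N, 0.9861 and 0.9857.

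**Figure D4:**
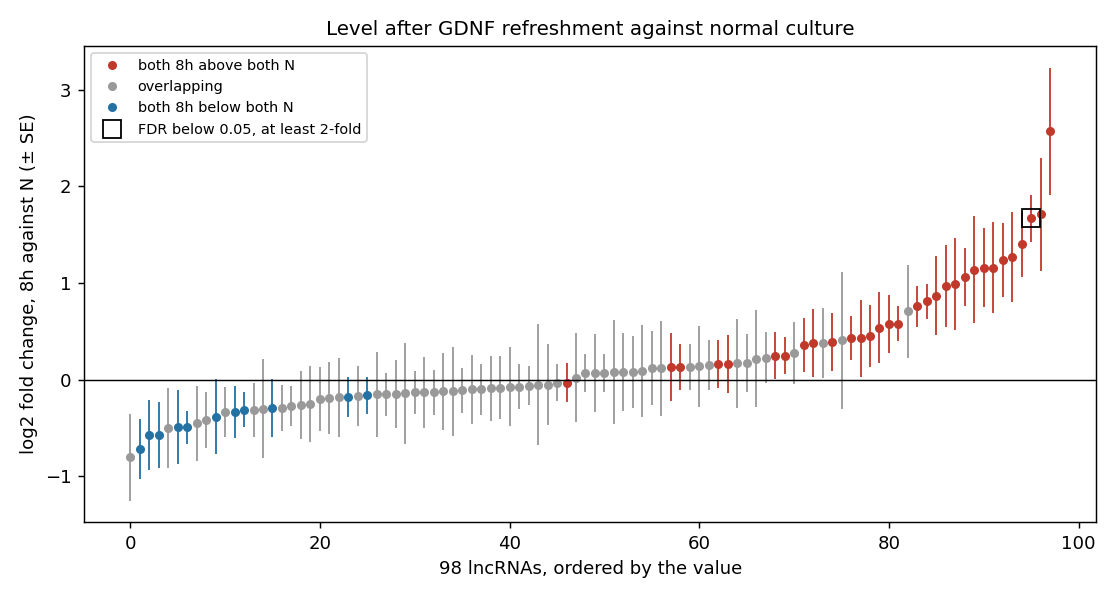
The log2 fold change of 8h against N (± SE, edgeR) for each of the 98 lncRNAs, ordered by value. Colours mark lncRNAs whose 2 8h libraries in CPM both lay above (31, red) or both below (11, blue) the 2 N libraries, and the square marks TCONS_00154177 at 1.67. Most values lie within 1 of 0, and the upper end extends further, to 2.57, than the lower, to -0.80.

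Between replicate numbers 2 and 1, over the 3 conditions, the median log2 difference of the 98 was -0.01 and single values ran from -0.92 to 0.97. The choice compared the lower 0h library with the highest of the other libraries, so it favoured lncRNAs with small differences between replicates. The counts that follow are therefore a description, and whether the set is more stable between replicates than other lncRNAs was not tested. None of the 98 differed at least 2-fold at an FDR under 0.05 by edgeR, against 0.404% higher and 0.633% lower over all tested. By DESeq2 none did either, against 0.237% and 0.27%. At an unadjusted P under 0.05 with a 2-fold change edgeR called 0 of the 98, against 2.56% higher and 2.57% lower over all tested, and DESeq2 called 1, n275993, against 1.82% and 1.9%. The known n275993, named after its values were seen, had 2.30 and 8.76 CPM in N, against 16.5 and 21.3 in 0h and 4.68 and 8.87 in 8h. With any fold, 2 passed an FDR of 0.05, against 2.48% of all tested, both predicted and both higher in replicate 2, and both are named after their values were seen. TCONS_00055613 had 23.8 and 29.6 CPM in the N libraries, 65.1 and 102 in the 0h libraries, and 22.4 and 40.5 in the 8h libraries, a log2 difference of 0.62 ± 0.14 with an FDR of 0.0181. TCONS_00105495 had 8.68 and 19.3 CPM in normal culture, 30.4 and 44.5 after withdrawal and 9.76 and 16.1 after refreshment, a difference of 0.79 ± 0.18 with an FDR of 0.0168. Replicate 2 was the higher of the pair in all 3 conditions for both lncRNAs, while the choice set 0h above N and 8h in each replicate.

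Reads covered a median of 71.2% of the length of the 98 lncRNAs over the 6 libraries, against 78.6% for all that passed the limits and 68.7% for the opposite set. Known lncRNAs of the set had a median of 61.2% and predicted ones 76.5%. By condition the median was 62.2% in N, against 81.6% in 0h and 67.4% in 8h, and in the opposite set it was 76.9%, 51.5% and 81.0%. For all that passed the limits the medians lay between 77.9% and 80.5%. The read counts of both sets differed between conditions in the same direction as their coverage, and the part of read number in coverage was not tested. In 10 of the 98 the mean coverage was at least 90%, and in 9 it was under 30%. Among these 9, n291632 was covered over 49.61% and 53.46% of its length in 0h, and n278119 over 19.22% and 25.95%.

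By their numbers, 1 pair of the set can stem from a common locus. Whether other lncRNAs of the set share a locus was not tested, since numbers alone cannot show it and no coordinates were used. TCONS_00130098, of 914 bp, and TCONS_00130099, of 1017 bp, were the only pair with numbers 5 or less apart. The first had 4.34 and 4.14 CPM in N, against 11.4 and 9.06 in 0h and 5.33 and 2.62 in 8h. The second had 3.19 and 6.20 CPM in the N libraries, 13.1 and 11.4 in the 0h libraries, and 4.16 and 2.87 in the 8h libraries. No lncRNA of the set had the same 6 counts as any other transcript.

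Beside the 98, 64 tested transcripts outside the set bore a number 1 above or below that of 47 of them. For the 16 predicted ones the median log2 fold change was 0.53 for 0h against N, with 11 above 0, and -1.01 for 8h against 0h, with 3 above 0. Over all predicted lncRNAs tested the medians were -0.01 and 0.03. For the 48 known ones the medians were 0.16 and -0.03. At an unadjusted P under 0.05 with a 2-fold change, 6 of the 16 predicted ones were lower in 8h than in 0h and 2 higher, against 4.73% and 6.22% of all predicted. In 0h against N 2 of the 16 were higher and 1 lower, against 3.59% and 3.92%. Of the 48 known ones 1 was lower and 2 higher in 8h than in 0h, against 3.09% and 3.34% of all known, and 0 were higher and 1 lower in 0h than in N, against 2.27% and 2.85%.
Nearest in pattern was TCONS_00069399, of 1343 bp, beside TCONS_00069400, with 4 and 4 counts in normal culture, 52 and 33 after withdrawal and 13 and 12 after refreshment. TCONS_00051525, beside TCONS_00051524, had 6 and 9, then 38 and 40, then 21 and 19 counts. The opposite was TCONS_00107421, beside TCONS_00107422, with 4 and 14 counts in N, none in 0h, and 6 and 11 in 8h. These 3 were picked after their values were seen. Consecutive predicted numbers can be parts or isoforms of 1 transcript unit whose reads are shared, and without coordinates these cannot be told apart from separate genes.

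**Figure D5:**
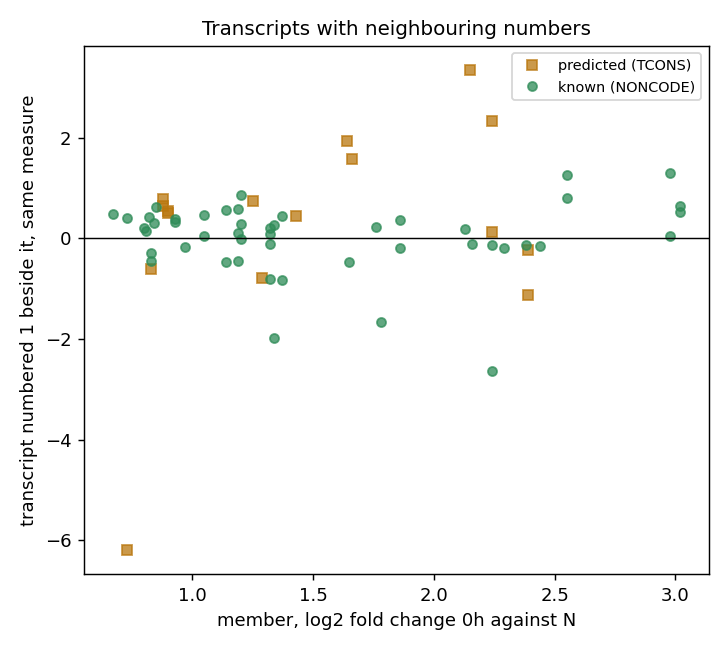
The log2 fold change of 0h against N of each of the 64 transcripts numbered 1 above or below a lncRNA of the set, against the value of that lncRNA, for predicted (squares) and known (circles) transcripts. All horizontal values are above 0 by the choice of the set. Of the 16 squares 11 lie above 0, and the lowest, TCONS_00107421 with no reads in 0h, is a fitted value at -6.20 that depends on how a count of 0 is treated.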

How the data were processed

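The authors sequenced ribosomal RNA-depleted, random-primed libraries on an Illumina HiSeq and deposited, per library, uniquely mapped read counts per lncRNA, transcript length, percent of length covered and RPKM scaled to the reads counted on lncRNAs. Predicted lncRNAs came from Cufflinks assembly and Coding Potential Calculator. The aligner, the counter, versions and genome build are not given in the sources used here. A transcript missing from a library was given 0 counts.

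CPM was the count divided by the library total (7685843 to 8497549) times 1000000. The set and the named lncRNAs were chosen with earlier results of these data known. Named were the 10 largest ratios, the 10 highest mean CPM in 0h, the 3 on each side of the limit, the 3 highest and 3 lowest values of 8h against N with every call there, consecutive numbers and n266295.

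Counts of the 39310 lncRNAs that had 10 or more in 2 or more libraries were tested with edgeR 4.0.16 in R 4.3.3 (quasi-likelihood test, TMM, 3 groups in 1 fit, Benjamini-Hochberg adjustment), after the test was checked on simulated data. SE is the standard error of the log2 fold change. Both replicate values are given in place of an SD. Exact permutation of 2 against 2 libraries cannot go below p = 0.333, two-sided.

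Alternatives were DESeq2 1.42.0, its size factors or total counts, no filter or at least 50 counts, only the 2 groups compared, each library left out, and the replicate number as a block. The study describes 2 independently established SSC lines, and the labels number replicates without tying a number to a line. The difference between replicates 2 and 1 correlated between conditions with Pearson's r of 0.173 (N and 0h), 0.187 (N and 8h) and 0.209 (0h and 8h) across the tested lncRNAs, and of 0.512, 0.521 and 0.584 across the 7505 with a mean of at least 100 counts. These lncRNAs are not independent replicates. All 3 pairs exceeded 0.1, so the replicate number entered as a block in an alternative fit, while the main fit had no replicate term. FDRs without mention of the block are from the main fit. Results of the blocked fit are given for n266295, for TCONS_00154177 and where the block changes a call of 8h against N. They are also given for counts where the block changes a call or moves the count by over 1.5 times. If the numbers do not mark separate lines, p-values measure only the spread between these libraries. No sequence or coordinate was used here for any lncRNA. Figures and set counts were made in Python 3.11.15 with pandas 2.3.3 and numpy 2.4.6.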

Additional observations from a re-analysis of the deposited data

How the results depend on the processing

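With 2 libraries per condition, the number of calls depended on each library and on the model. Of the 98, those called lower in 8h than in 0h were 39, and 75 with the replicate block, 23 with total counts, 65 without a filter and 13 with only the 2 groups compared. Those called higher in 8h than in N were 1, and 5 with the block, 3 without a filter, 2 by DESeq2 and 0 with only the 2 groups compared. Leaving out 1 library at a time gave 6 to 45 for 0h above N, in place of 41. The count fell to 12 and 6 without N replicate 1 and 2, and to 21 and 9 without 0h replicate 1 and 2. For 8h below 0h it gave 1 to 21, with 21 and 19 without N replicates 1 and 2, 9 and 1 without 0h replicates 1 and 2, and 14 and 10 without 8h replicates 1 and 2. For 8h above N it gave 0 to 1, with 0 without N replicate 1, N replicate 2 or 8h replicate 2. These fits hold fewer libraries, and the lone library of a condition was assumed to vary like the others. The rule itself returned 25 lncRNAs with a ratio of 2, 542 with at least 10 counts and 56 with at least 100 counts in place of 50. It returned 135 to 213 with 1 library left out, above 1.5 times the 98 without N replicate 2 (164), 0h replicate 1 (213), 0h replicate 2 (169) or 8h replicate 1 (152), since fewer libraries bound it. The median log2 fold change of 8h against N, 0.07, stayed between 0.02 and 0.11 with a library left out and was 0.15 with total counts. One direction turned, that of n266295 for 8h against N, which ran from -0.30 (FDR 0.813, without 8h replicate 1) to 0.70 (without 8h replicate 2). Among single lncRNAs, 451 of the alternative values kept direction and side of the threshold, 98 lost the call and 35 gained it. With the replicate block 11 of the single log2 fold changes gained the call and 0 lost it, and no other count moved by over 1.5 times. The causes were not tested. Below about 50 counts in N, which 53 of the 98 had, counting error widens each fold change.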
